A study of Mus musculus with 8 samples.

Results

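Osteoclasts and the macrophages they arise from hold to bone, matrix and other cells through integrins, receptors built of 1 α and 1 β subunit. The genes described here encode 10 of these subunits, matched by Ensembl identifier to 10 of the 46517 genes in the deposited table. They were chosen by name and not by a cutoff on their values, but with earlier results of these data known. They form 3 groups. The αv group holds Itgav with its β partners Itgb3 and Itgb5. The β1 group holds Itgb1 with the α subunits Itga4 and Itga5. The β2 group holds Itgb2 with the α subunits Itgam, Itgax and Itgal. All 10 passed the filter on low values, which asked for 10 or more normalized counts in 4 or more libraries, and the fewest reads on any of them in any library was 177.

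The libraries were made from mRNA of osteoclast cultures grown from the femoral marrow of mice 6 to 8 weeks old, 4 with a global deletion of Elmo1 (Elmo1-/-) and 4 heterozygous controls (Elmo1+/-), 1 mouse per library. The marrow was held in plain medium for 16 h, and its suspension cells were then grown with 10% conditioned medium of L929 cells, a source of M-CSF. The cells that had attached to the dishes were collected, replated and grown with GST-RANKL at 50 ng/ml for 7 days. Both groups therefore received RANKL, and both carried at least 1 deleted copy of Elmo1. The control libraries are titled as wild-type, but the genotype given in their labels and in the methods is Elmo1+/-, which is used here, and no wild-type library was analysed. Every cell of an Elmo1-/- mouse lacks the gene, so the deletion was not limited to osteoclasts, and a culture holds osteoclasts together with macrophages that have not fused. In such bulk RNA, fewer cells of a type and less RNA per cell cannot be told apart. The comparison asks whether loss of ELMO1, which with DOCK proteins activates the GTPase Rac, goes with another supply of transcripts for the receptors that signal to Rac.

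As background, integrin αvβ3 is the receptor by which mature osteoclasts bind osteopontin and other matrix proteins that carry an RGD motif, and its β3 subunit is induced as precursors turn into osteoclasts. It signals through c-Src, Syk and VAV3 to Rac and the actin ring that seals the cell to bone. β1 integrins are found in nearly all adherent cells, and β2 integrins, with CD11b (Itgam), CD11c (Itgax) and CD11a (Itgal) as α subunits, are restricted to leukocytes.

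The libraries held between 20905502 and 40846651 reads on genes. Elmo1 itself was measured at 274 to 316 normalized counts in the Elmo1-/- libraries and at 1423 to 1769 in the Elmo1+/- libraries, a log2 fold change of -2.44 ± 0.088 (SE, n = 4 per genotype; limma adjusted p = 8e-06), so each library matched its label. A normalized count is the number of reads on a gene divided by 1 size factor per library. The libraries numbered 1 and 2 in each genotype stood apart from those numbered 3 and 4 along the first principal component, which held 62.3% of the variance. Elmo1-/- library 2 was intermediate, at -6.03 on this component against -52.3 for Elmo1-/- library 1 and 26.4 and 24.7 for libraries 3 and 4 of that genotype, so the split is less clear for it. By the methods each experiment held 2 mice of each genotype, and which mice shared one is not stated, so a set and an experiment cannot be told apart from the labels. All 12 osteoclast markers, from the protease Ctsk to the calcitonin receptor Calcr, were higher without overlap in libraries 3 and 4, where their sum lay between 1049980 and 1191950 normalized counts against 462492 to 706315 in libraries 1 and 2. Of the 12 macrophage markers 6 were lower without overlap in libraries 3 and 4, and none was higher. Over all genes tested 18.1% were higher and 15.8% lower in libraries 3 and 4 without overlap. The integrin values are therefore given by genotype and by set.

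Promoters are shown because some of the genes differed between the sets while others stayed level. The sequence before the transcription start was taken from RefSeq (GRCm38.p6) for 7 of the 10 members, the others being Itgb3, Itgb2 and Itgal. Below are the 250 bases before the start of Itgav, which was higher in libraries 3 and 4, of Itgb1, which was nearly level over all libraries, and of the neighbouring β2 partners Itgam and Itgax. Capitals mark 2 short motifs searched on both strands: GAGGAA, the core bound by the myeloid factor PU.1, and TGANTCA, the AP-1 motif bound by FOS and JUN proteins. The GC box GGGCGG was searched as well and is not marked.
Itgav promoter, chr2:83724147-83724396, plus strand: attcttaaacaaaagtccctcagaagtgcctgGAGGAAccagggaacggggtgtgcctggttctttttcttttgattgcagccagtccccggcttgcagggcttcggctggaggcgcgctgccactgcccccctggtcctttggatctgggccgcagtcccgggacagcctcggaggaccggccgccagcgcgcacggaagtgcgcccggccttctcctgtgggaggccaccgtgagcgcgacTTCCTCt
Itgb1 promoter, chr8:128685404-128685653, plus strand: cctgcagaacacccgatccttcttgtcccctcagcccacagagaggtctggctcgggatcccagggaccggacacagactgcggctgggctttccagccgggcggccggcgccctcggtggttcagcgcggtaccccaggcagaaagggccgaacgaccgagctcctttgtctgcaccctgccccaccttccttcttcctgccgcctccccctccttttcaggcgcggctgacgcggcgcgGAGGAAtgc
Itgam promoter, chr7:128062390-128062639, plus strand: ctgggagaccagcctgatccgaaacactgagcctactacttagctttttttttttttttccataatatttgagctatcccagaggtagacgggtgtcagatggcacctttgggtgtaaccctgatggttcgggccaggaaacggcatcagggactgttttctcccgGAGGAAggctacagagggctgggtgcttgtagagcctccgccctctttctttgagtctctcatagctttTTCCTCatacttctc
Itgax promoter, chr7:128129300-128129549, plus strand: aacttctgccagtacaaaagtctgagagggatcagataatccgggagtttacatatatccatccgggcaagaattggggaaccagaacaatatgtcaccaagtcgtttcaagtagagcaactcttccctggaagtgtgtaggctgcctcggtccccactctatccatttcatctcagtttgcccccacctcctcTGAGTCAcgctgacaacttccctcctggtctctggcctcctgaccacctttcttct

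The Itgav window held GAGGAA on both strands, with first bases 218 and 7 bases before the start. The Itgam window also held 2 matches, at 84 and 15 bases, and the Itgb1 window held 1, at 9 bases. The Itgax window held no GAGGAA and 1 AP-1 match, TGAGTCA, at 56 bases before the start. Among the 3 windows not printed, Itga5 held GAGGAA once, at 127 bases, and Itgb5 and Itga4 held neither GAGGAA nor TGANTCA. The GC box was found in the windows of Itgb5, Itgb1, Itga4, Itga5 and Itgam, and not in those of Itgav and Itgax. Over 27025 RefSeq mouse promoters cut to the same length, 23.1% held GAGGAA, 6.87% held TGANTCA and 32.9% held the GC box. Matches to GAGGAA and the GC box are thus common and those to TGANTCA less so, and all are given only as a description.

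In GENCODE M21 (GRCm38) all 10 members are protein-coding genes, and 9 lie on the plus strand. The αv group holds Itgav (ENSMUSG00000027087) at chr2:83724397-83806916, Itgb3 (ENSMUSG00000020689) at chr11:104608000-104670476 and Itgb5 (ENSMUSG00000022817) at chr16:33829665-33949338. In the β1 group are Itgb1 (ENSMUSG00000025809) at chr8:128685654-128733200, Itga4 (ENSMUSG00000027009) at chr2:79255426-79333123 and, on the minus strand, Itga5 (ENSMUSG00000000555) at chr15:103344286-103366763. The β2 group has Itgb2 (ENSMUSG00000000290) at chr10:77530252-77565708, while its 3 α subunits are all on chromosome 7, with Itgal (ENSMUSG00000030830) at chr7:127296260-127335138, Itgam (ENSMUSG00000030786) at chr7:128062640-128118491 and Itgax (ENSMUSG00000030789) at chr7:128129547-128150657. The table gives 1 value per gene, so isoforms were not told apart.

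Compared per length, Itgb2, Itgam and Itgb1 were the most abundant transcripts, above all 3 genes of the αv group, while the other β2 and β1 members lay among the αv genes or below them. Levels between genes are given as normalized counts per kb of exon in the GENCODE M21 annotation (GRCm38). Itgb2, the common β subunit of the leukocyte integrins, stood highest at 10894 per kb, at the 98.5th percentile of the 14139 genes tested. Its partner Itgam followed at 8793 per kb and Itgb1 at 5450 per kb, and each of the 3 was above the next in the list in all 8 libraries. The ranges of Itgb2 (9990 to 11630) and Itgam (6999 to 10290) still overlapped when libraries were compared with one another.

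Below this trio came Itgb3 at 1375 per kb, Itga5 at 1195 per kb, Itgav at 909 per kb and Itgal at 890 per kb. The neighbours in this run of 4 overlapped in their ranges and did not keep 1 order in every library. Itgb5 at 318 per kb, Itga4 at 116 per kb and Itgax at 69.2 per kb closed the list, at percentiles 67.2, 43.8 and 33.7. Itgal lay above Itgb5 and Itgb5 above Itga4 with no overlap of their ranges, whereas the ranges of Itga4 (65.5 to 149 per kb) and Itgax (34.9 to 97.3 per kb) overlapped, although Itga4 was the higher in every library. Taking the longest transcript as the length changed the order only in that Itgav passed Itga5.

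**Figure D1:**
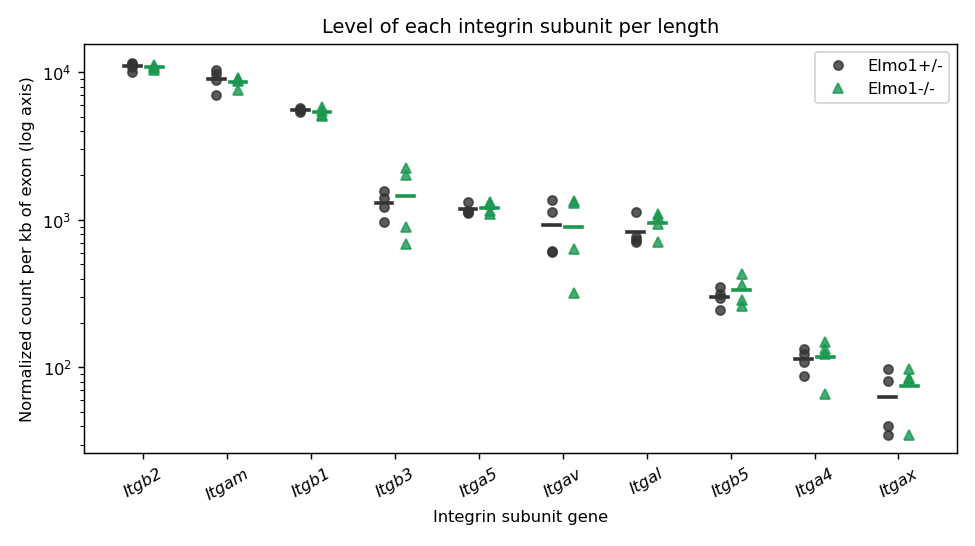
Normalized count per kb of exon (log axis) of the 10 integrin subunit genes, ordered by their mean, with 1 point per library and a bar at the mean of 4 libraries per genotype. The means run from 10894 for Itgb2 to 69.2 for Itgax, and the points of both genotypes overlap for every gene.

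As shares per length, Itgb2 made up 60.6% ± 1.58 (SD, n = 4) of the summed 4 β subunits in Elmo1+/- libraries and 60.3% ± 3.5 in Elmo1-/- libraries. Itgb1 made up 30.7% ± 0.903 and 29.8% ± 0.440, Itgb3 7.11% ± 1.35 and 7.96% ± 3.90, and Itgb5 1.66% ± 0.178 and 1.89% ± 0.538. Among the α partners of β2, Itgam held 87.9% to 93.3% of the sum with Itgax and Itgal in each library, Itgal 6.40% to 11.1% and Itgax 0.318% to 1.03%. CD11b transcripts were thus the main β2 partner in every library of both genotypes.

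For none of the 10 subunits did a difference between the genotypes pass the test. In the limma test over all 14139 genes no member had an adjusted p under 0.05, and the adjusted p was 0.9999 for each. Over all genes 1 was called, Elmo1, or 0.00707%. At an unadjusted p under 0.05, 0 of the 10 members passed by limma, 0 by edgeR and 0 by DESeq2, beside 133 genes, or 0.941%, by limma over the whole table. The 4 libraries of each genotype overlapped for all 10 members, and over all genes the genotypes did not overlap for 133 genes, also 0.941%. Of the members 6 had a higher and 4 a lower mean in Elmo1-/-, with a median log2 fold change of 0.015 beside -0.0031 over all genes tested. The size of difference that the data could show varied from gene to gene, and a 95% interval is given for each. The fit had no term for the set of libraries, so the spread between the sets widens these intervals. With the set as a term the interval was narrower for each member and still included 0. For Itgav it was then -0.62 to 0.28, for Itgb3 -0.42 to 0.47 and for Itgam -0.25 to 0.15.

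The αv subunit Itgav, the partner of both β3 and β5, was measured in the Elmo1+/- libraries 1 to 4 at 6465, 6562, 14590 and 12070 normalized counts. The Elmo1-/- libraries 1 to 4 had 3414, 6785, 13878 and 14353. In both genotypes libraries 3 and 4 were the high ones, and the genotypes overlapped fully. The log2 fold change of Elmo1-/- over Elmo1+/- was -0.17 ± 0.48 (SE, n = 4 per genotype; 95% interval -1.26 to 0.91; exact two-sided permutation p = 0.886), the widest interval among the 10 members. By edgeR and by DESeq2 it was -0.048.

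Itgb3 encodes the β3 subunit that completes the osteoclast vitronectin receptor. Its normalized counts were 7167, 5732, 9310 and 8247 in Elmo1+/- libraries 1 to 4 and 4045, 5248, 11895 and 13274 in Elmo1-/- libraries 1 to 4. The Elmo1-/- values included both the 2 lowest and the 2 highest of all 8, and their SD was 4643 against 1529 in Elmo1+/-. Each of the osteoclast markers also had a larger SD in Elmo1-/-, such as Oscar at 1063 against 400. The log2 fold change of Itgb3 was 0.022 ± 0.38 (95% interval -0.83 to 0.88; exact permutation p = 0.943, n = 4 per genotype). On the recovered reads edgeR and DESeq2 both gave 0.18, also without a call. By quantitative RT-PCR the study itself reports higher integrin β3 expression in Elmo1-/- osteoclasts, and no change for integrin β5. Its controls in that assay were Elmo1+/+ cells, whereas those of the libraries were Elmo1+/-.

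Itgb5 is the β subunit with which αv forms a receptor already present on macrophages and precursors. Across the 8 libraries it tended to run opposite to Itgb3 (Pearson r of log2 values -0.72). Elmo1+/- libraries 1 to 4 had 1041, 1121, 1238 and 874 normalized counts, and Elmo1-/- libraries 1 to 4 had 1532, 1291, 922 and 1023. The 2 highest values were those of Elmo1-/- libraries 1 and 2, the libraries with the least Itgb3. Elmo1-/- was higher on average, with a log2 fold change of 0.14 ± 0.17 (95% interval -0.25 to 0.53; exact permutation p = 0.486, n = 4 per genotype).

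The β1 group was the steadiest. Itgb1, the shared β subunit of collagen, laminin and fibronectin receptors, had 22629, 22520, 23529 and 21912 normalized counts in Elmo1+/- libraries 1 to 4 and 20823, 20513, 22126 and 23874 in Elmo1-/- libraries 1 to 4. The highest library was 1.16 times the lowest, against 4.27 times for Itgav and 3.28 times for Itgb3. Between the genotypes a log2 fold change of -0.055 ± 0.075 had a 95% interval of -0.23 to 0.12 (exact permutation p = 0.343, n = 4 per genotype), which leaves out changes of the size seen between sets for Itgav and Itgb3.

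Its α partner Itga5, which with β1 forms the classical fibronectin receptor, lay between 5398 and 6542 normalized counts in all 8 libraries, with a log2 fold change of 0.037 ± 0.088 (95% interval -0.16 to 0.24; exact permutation p = 0.800, n = 4 per genotype). Itga4, which with β1 binds VCAM-1 and fibronectin, varied more. It had 1231, 1531, 1849 and 1734 normalized counts in Elmo1+/- libraries and 916, 1865, 1731 and 2088 in Elmo1-/- libraries 1 to 4. Library 1 was the lowest of each genotype, and the log2 fold change was 0.0079 ± 0.25 (95% interval -0.56 to 0.57; exact permutation p = 0.943, n = 4 per genotype). The exons of Itga4 overlap those of Cerkl on the other strand and those of Itgav overlap the antisense Gm13684, and whether reads were counted by strand is not given in the sources used here.

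In the β2 group, Itgb2 was as level as Itgb1. It had 35496, 33142, 34969 and 30490 normalized counts in Elmo1+/- libraries 1 to 4 and 32600, 33394, 31607 and 34292 in Elmo1-/- libraries 1 to 4, a ratio of 1.16 between the highest and the lowest. Its log2 fold change was -0.022 ± 0.078 (95% interval -0.20 to 0.15; exact permutation p = 0.714, n = 4 per genotype). Humans and mice without this subunit have leukocytes that cannot adhere firmly to vessel walls.

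Itgam, the α subunit of complement receptor 3, had 51698, 48921, 44668 and 35161 normalized counts in Elmo1+/- libraries and 46075, 45109, 38201 and 43567 in Elmo1-/- libraries 1 to 4. Both genotypes were highest in library 1, and the log2 fold change was -0.050 ± 0.13 (95% interval -0.34 to 0.24; exact permutation p = 0.714, n = 4 per genotype). Itgam shares exon bases with Gm49368 on the same strand, so a part of its reads may be split between them.

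Itgal, the α subunit of the ICAM receptor LFA-1, had 4640, 4795, 7403 and 5034 normalized counts in Elmo1+/- libraries and 4659, 6842, 6186 and 7201 in Elmo1-/- libraries 1 to 4. Elmo1+/- library 3 was the highest of all and stood apart from the other 3 of its genotype. For Itgal the log2 fold change was 0.19 ± 0.18 (95% interval -0.22 to 0.61; exact permutation p = 0.457, n = 4 per genotype).

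Itgax, the α subunit CD11c found on dendritic cells and many tissue macrophages, was the scarcest member. It had 168, 193, 467 and 387 normalized counts in Elmo1+/- libraries and 167, 408, 401 and 466 in Elmo1-/- libraries 1 to 4. The 3 low values were Elmo1+/- libraries 1 and 2 and Elmo1-/- library 1, and the other 5 lay between 387 and 467. Its log2 fold change of 0.28 ± 0.41 was the largest of the 10 (95% interval -0.66 to 1.22; exact permutation p = 0.686, n = 4 per genotype). The smallest p that 4 against 4 libraries allow in this test is 0.0286.

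**Figure D2:**
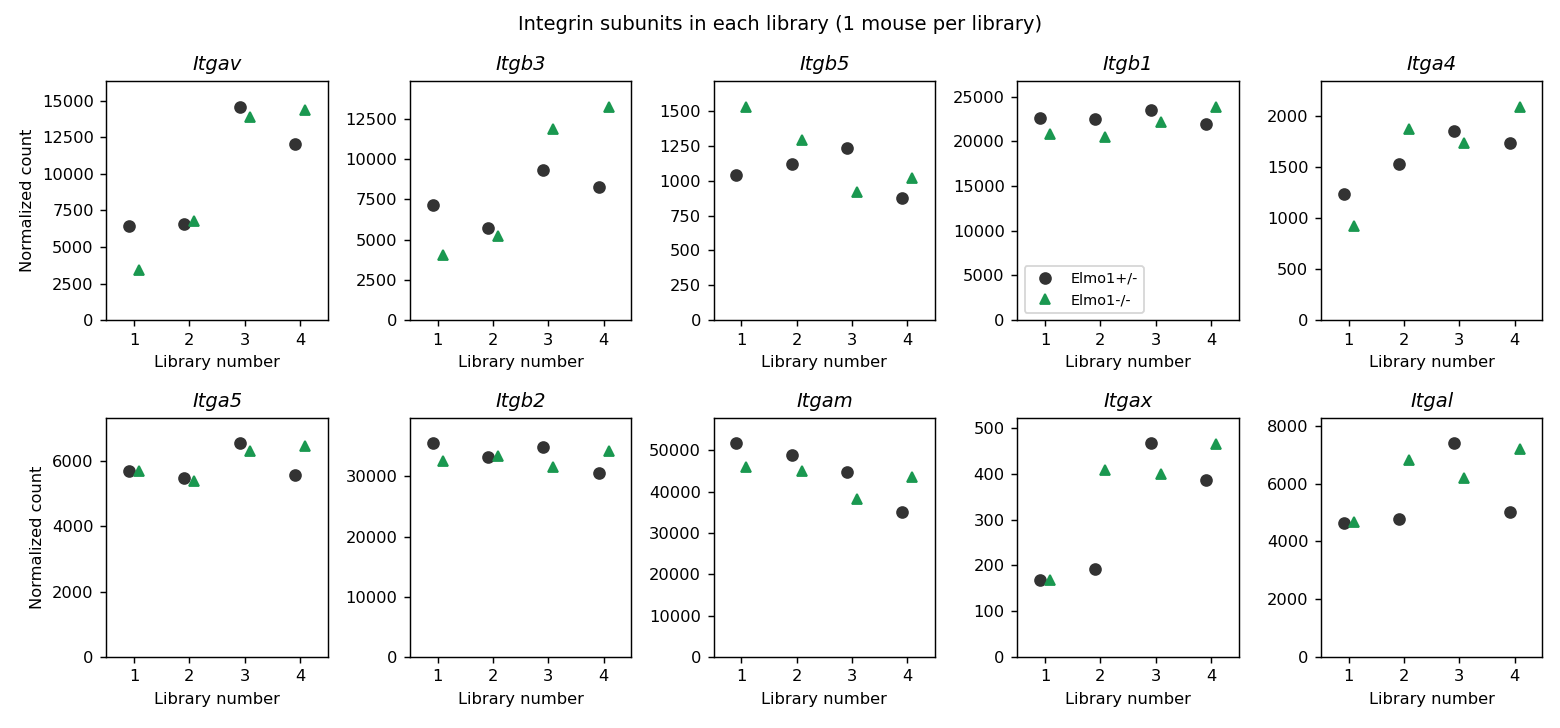
Normalized count (vertical axis, from 0) of each integrin subunit gene by library number, with circles for Elmo1+/- and triangles for Elmo1-/-. Itgav and Itgb3 are higher in libraries 3 and 4 of both genotypes, Itgam is lower there, and Itgb1 and Itgb2 stay within 1.16 times over all 8.

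The sets of libraries did not overlap for 3 of the 10 members, whereas the genotypes overlapped for all. Between libraries 3 and 4 and libraries 1 and 2, with genotypes together, the mean log2 value of Itgav differed by 1.29 and that of Itgb3 by 0.95, both higher in 3 and 4 with no overlap. Over all genes 2562, or 18.1%, were higher in 3 and 4 without overlap, so 2 of 10 members is close to the share of the whole table. Itgam was lower in 3 and 4 by 0.25 on the log2 scale, again without overlap, beside 2241 genes, or 15.8%. The sets were seen on the data themselves and are described here without a test.

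In linear terms Itgav averaged 5807 ± 1601 normalized counts (SD, n = 4) in libraries 1 and 2 and 13723 ± 1141 in 3 and 4. Itgb3 averaged 5548 ± 1291 and 10681 ± 2310, while Itgam averaged 47951 ± 2977 and 40399 ± 4492. Among the 7 members whose sets overlapped, Itgax differed by 0.98, Itga4 by 0.46, Itgal by 0.31, Itga5 by 0.16 and Itgb1 by 0.081, all with the higher mean in 3 and 4, and Itgb2 differed by -0.037 and Itgb5 by -0.29. The median over the 10 members was 0.23, beside -0.0072 over all genes tested. The differences of Itgav and Itgb3 lay within the range of the osteoclast markers, whose median difference was 1.17 on the same scale. So did that of Itgax, whose sets overlapped, and those of Itga2 and Itgae, integrin subunits outside the members, at 1.28 each. Itgam shared its sign with the median of the macrophage markers, -0.46, and with that of the neutrophil markers, -0.61. Of the 9 neutrophil markers tested, 1 was lower in 3 and 4 without overlap, beside 15.8% of all genes. In size the Itgam difference was near the median absolute difference over all genes tested, 0.21. The part that the mixture of cell types has in these differences was not tested.

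**Figure D3:**
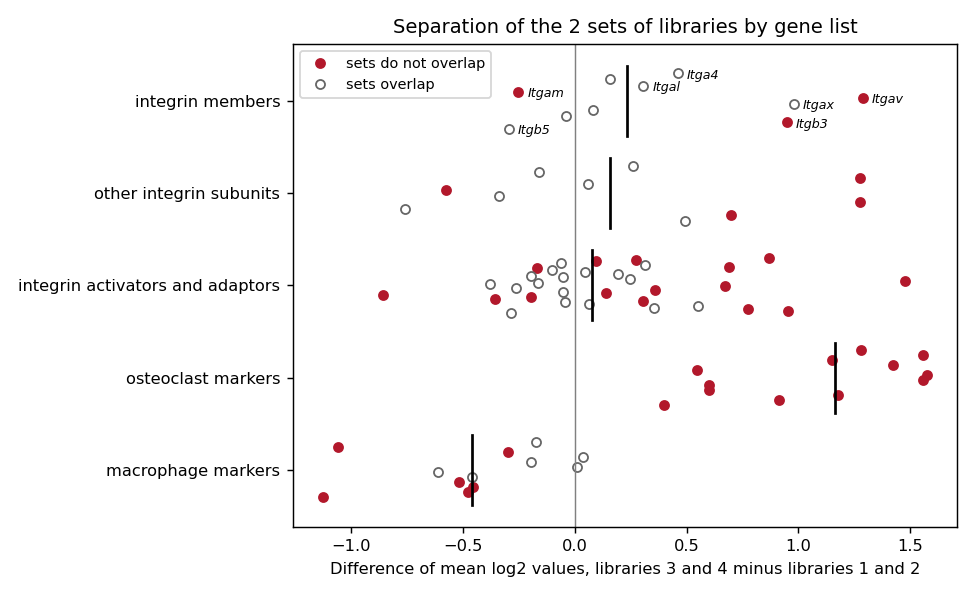
Difference of mean log2 values (libraries 3 and 4 minus libraries 1 and 2) for the integrin members and 4 lists of genes, 1 point per gene tested, filled where the sets do not overlap, with a bar at the median of each list. Itgav at 1.29, Itgb3 at 0.95 and Itgax at 0.98, the last with overlap of the sets, lie among the osteoclast markers, whose median is 1.17. Itgam at -0.25 lies within the range of the macrophage markers, whose median is -0.46. The neutrophil markers, which are not drawn, had a median of -0.61.

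Within the sets, Itgb3 was the member for which the genotypes did not overlap in either set. In libraries 1 and 2 both Elmo1-/- values, 4045 and 5248, were below both Elmo1+/- values, 7167 and 5732. In libraries 3 and 4 both Elmo1-/- values, 11895 and 13274, were above both Elmo1+/- values, 9310 and 8247. As log2 fold changes these were -0.48 in 1 and 2 (95% interval -0.91 to -0.040; limma adjusted p = 0.999993) and 0.52 in 3 and 4 (95% interval 0.34 to 0.70; limma adjusted p = 0.296).

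The difference between these 2 effects was 0.996 on the log2 scale (95% interval 0.51 to 1.48), with an unadjusted limma p of 0.00125 and an adjusted p of 0.9999 over all genes, so it did not pass the correction. No gene of the 14139 had an adjusted interaction p under 0.05 in limma, and at an unadjusted p under 0.05 there were 378, or 2.67%, of which Itgb3 was the only member. Opposite genotype differences without overlap in the 2 sets, as Itgb3 had them, were found for 575 genes, or 4.07%.

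Itgb5 had the reverse order, with a log2 fold change of 0.38 in libraries 1 and 2 (95% interval 0.063 to 0.70; limma adjusted p = 0.999993) and -0.10 in libraries 3 and 4 (95% interval -0.47 to 0.27). The difference of its effects was -0.48 (95% interval -0.995 to 0.038; limma adjusted p = 0.9999). Itgb3 and Itgb5 were the members with an unadjusted p under 0.05 in libraries 1 and 2, where 361 genes, or 2.55%, passed that level. Itgb3 alone was so in libraries 3 and 4, where 419 genes, or 2.96%, did. The other 8 members had within-set intervals that included 0 in both sets, with log2 fold changes from -0.44 (Itgav) to 0.54 (Itgax) in 1 and 2 and from 0.012 (Itgb2) to 0.13 (Itgal) in 3 and 4. Each set holds 2 mice per genotype.

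In Elmo1-/- library 1 the osteoclast transcripts were also lowest: its sum over the 12 osteoclast markers, 462492 normalized counts, was the least of the 8 libraries, and its Itgav and Itgb3 were the least as well. Whether the Itgb3 difference within a set goes beyond the extent of osteoclast formation in each culture was not tested.

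**Figure D4:**
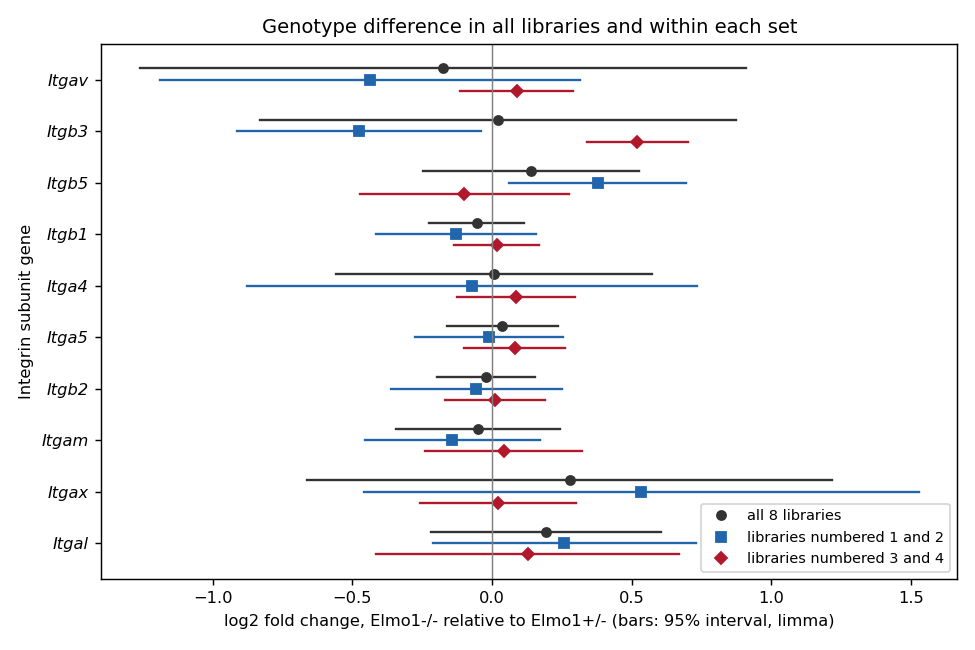
Log2 fold change of Elmo1-/- relative to Elmo1+/- for each integrin subunit gene, with 95% limma intervals, in all 8 libraries (circles), in libraries 1 and 2 (squares) and in libraries 3 and 4 (diamonds). Over all libraries every interval includes 0, and for Itgb3 the within-set values of -0.48 and 0.52 lie on opposite sides.

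Ratios of β subunits within a library, which do not depend on the scaling between libraries, gave the comparison of αvβ3 with the β1 and β2 integrins. The log2 ratio of Itgb3 to Itgb1 reads was -1.59 ± 0.29 (SD, n = 4) in Elmo1+/- and -1.52 ± 0.76 in Elmo1-/-, a difference of 0.077 (exact permutation p = 0.857). The ratio of Itgb3 to Itgb2 was -2.16 ± 0.31 and -2.11 ± 0.85, a difference of 0.044 (exact permutation p = 0.914, n = 4 per genotype). The genotypes differed in neither by more than the spread between mice, and the SD was over 2 times larger in Elmo1-/- for both.

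The ratio of Itgb3 to Itgb5, the alternative partners of αv, was 2.82 ± 0.37 in Elmo1+/- and 2.70 ± 1.17 in Elmo1-/-, a difference of -0.12 (exact permutation p = 0.857, n = 4 per genotype). Between the sets these 3 ratios were higher in libraries 3 and 4 without overlap, by 0.87 against Itgb1, 0.99 against Itgb2 and 1.24 against Itgb5. The steady pair Itgb1 and Itgb2 had a log2 ratio between -0.70 and -0.48 in all 8 libraries, a genotype difference of -0.033 (exact permutation p = 0.600, n = 4 per genotype) and a set difference of 0.12. After adjustment over the 4 ratios no p was under 0.05, since none was so before it.

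Within the sets, the genotype difference in the ratio of Itgb3 to Itgb1 was -0.35 in libraries 1 and 2 and 0.50 in libraries 3 and 4. Against Itgb2 it was -0.42 and 0.51, and against Itgb5 it was -0.86 and 0.62. As a share per length, Itgb3 was 61.4% to 80.6% of the sum of Itgb3 and Itgb5 in libraries 1 and 2 and 81.9% to 88.7% in 3 and 4, with Elmo1-/- library 1 the lowest at 61.4%. Itgav was 20.6% to 33.96% of the sum of Itgav, Itga4 and Itga5 in libraries 1 and 2 and 47.3% to 48.2% in 3 and 4.

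**Figure D5:**
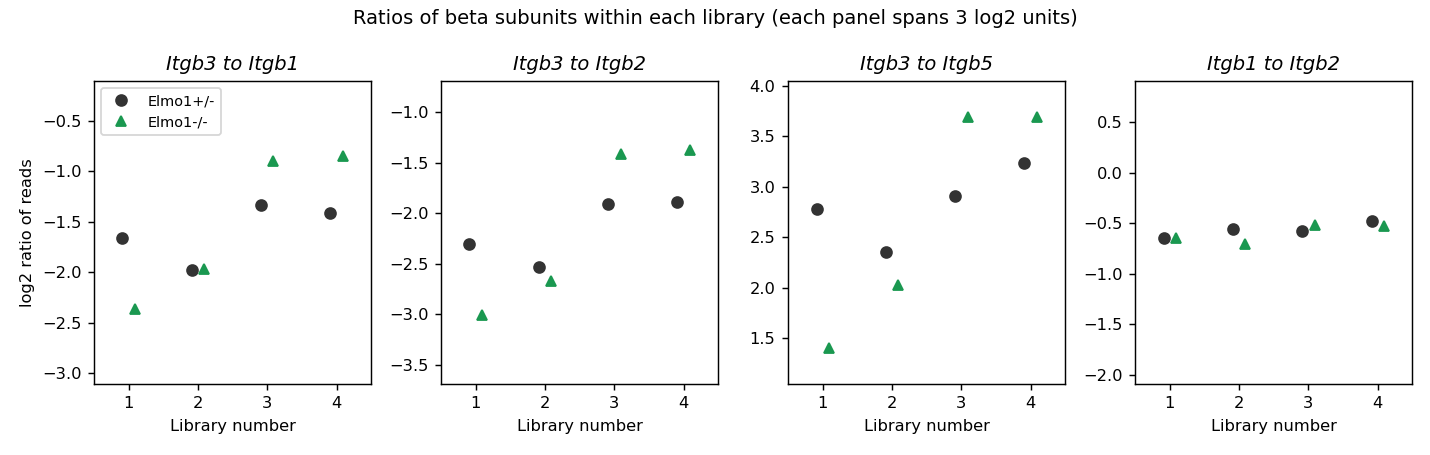
Log2 ratio of reads between pairs of β subunit genes in each library (each panel spans 3 log2 units), with circles for Elmo1+/- and triangles for Elmo1-/-. The 3 ratios with Itgb3 are higher in libraries 3 and 4 than in 1 and 2 in both genotypes, and the ratio of Itgb1 to Itgb2 stays between -0.70 and -0.48.

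The other integrin genes gave no call either. Of 18 further subunit genes 10 passed the filter, with 0 called and 0 at an unadjusted p under 0.05, and a median log2 fold change of -0.057. Itga6, a laminin receptor subunit and the most abundant of them, had 1308 ± 114 normalized counts in Elmo1+/- libraries and 1399 ± 234 in Elmo1-/-. Itga9, whose β1 receptor binds osteopontin and tenascin, had the smallest p of the 10, with 656 ± 147 and 554 ± 76.0 (log2 fold change -0.22 ± 0.18 SE). Of the 8 below the filter, Itgbl1 was at 0 in every library, and Itga2b, the platelet partner of β3, reached at most 7.36 normalized counts. Of the α partners of β3, Itgav was therefore the one measured above this level.

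Between the sets 3 of these 10 were higher in libraries 3 and 4 without overlap, namely Itga2 (set difference 1.28), Itgae (1.28) and Itgb7 (0.70), and Itga8 was lower (-0.58), beside 18.1% and 15.8% of all genes. Itga2 is the α subunit of a collagen receptor with β1, and averaged 157 normalized counts in libraries 1 and 2 and 361 in 3 and 4. Itgb7 partners Itga4 and Itgae in lymphocytes and averaged 486 and 776.

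Of 34 genes for activators and adaptors that bind integrin tails or link them to actin, 32 were tested and none passed at an unadjusted p under 0.05. The most abundant, the filamin Flna, had 50598 ± 3501 normalized counts in Elmo1+/- libraries and 48927 ± 1964 in Elmo1-/-, and Parvg had the smallest p (870 ± 101 and 1021 ± 179). Talin-1 and kindlin-3, which bind β tails to activate integrins, are named for that role. Tln1 had 23446 ± 636 and 23441 ± 1584 normalized counts, a log2 fold change of -0.0023 ± 0.074 (SE). Fermt3 had 14598 ± 1003 and 15084 ± 1410. Between the sets 11 of the 32 were higher and 4 lower in libraries 3 and 4 without overlap, beside 18.1% and 15.8% of all genes. Among those higher were vinculin (Vcl, 1044 against 1982 normalized counts in libraries 1 and 2 against 3 and 4) and α-actinin-1 (Actn1, 5419 against 9669), both components of the podosomes that build the sealing zone.

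All 27 kinases, GTPases and exchange factors downstream of integrins were tested, with 0 called, 0 at an unadjusted p under 0.05 and a median log2 fold change of 0.0053. Rac2, the most abundant, had 40069 ± 1912 normalized counts in Elmo1+/- libraries and 38722 ± 4893 in Elmo1-/-. Vav3, the exchange factor through which αvβ3 activates Rac in osteoclasts, had the smallest p, with 1764 ± 104 and 1647 ± 72.2 (log2 fold change -0.098 ± 0.067 SE). The ELMO partners Dock1, Dock2 and Dock5, named for that role, had log2 fold changes of 0.049 ± 0.092, 0.020 ± 0.16 and -0.12 ± 0.36 (SE). Src, the kinase needed for ruffled borders, averaged 3068 normalized counts in libraries 1 and 2 and 5532 in 3 and 4 without overlap, and Syk averaged 15774 and 16500 with overlap. Of the 27 genes 8 were higher and 7 lower in libraries 3 and 4 without overlap, beside 18.1% and 15.8% of all genes.

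Of 25 genes for ligands and counter-receptors 18 were tested, with 0 called. Spp1, which encodes osteopontin, the RGD ligand of αvβ3 that osteoclasts secrete, was both the most abundant and the one with the smallest p. It had 125760 ± 18368 normalized counts in Elmo1+/- libraries and 97016 ± 13671 in Elmo1-/-, a log2 fold change of -0.38 ± 0.14 (SE; limma adjusted p = 0.9999). It was under an unadjusted p of 0.05 and did not pass the adjustment over all genes. Vcam1, a ligand of α4β1, was the other ligand gene under that level, at 250 ± 52.3 and 322 ± 38.3 normalized counts (log2 fold change 0.38 ± 0.16 SE, limma adjusted p = 0.9999). With 2 of 18 at this level the list stands beside 0.941% of all genes. By a ratio method of its own, the study lists Spp1 and Vcam1 among its Elmo1-regulated genes, Spp1 as lower and Vcam1 as higher in Elmo1-/-. Vitronectin (Vtn) reached at most 1.56 normalized counts, and the 3 fibrinogen genes Fga, Fgb and Fgg were at 0 in every library.

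All 15 membrane partners were tested and none passed at an unadjusted p under 0.05. Sirpa, the receptor of CD47 with a part in precursor fusion, had 63433 ± 6992 normalized counts in Elmo1+/- libraries and 64827 ± 8161 in Elmo1-/-. Cav1 had the smallest p, with 1202 ± 271 and 1608 ± 458 (log2 fold change 0.40 ± 0.23 SE). Between the sets 2 of the 15 were higher and 1 was lower in libraries 3 and 4 without overlap, no more than the 18.1% and 15.8% of all genes.

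Marker genes of other cell types bear on where the leukocyte integrins were read. Neutrophils carry much Itgb2 and Itgam, and 9 of 10 neutrophil markers passed the filter, with a summed level of 23399 to 29871 normalized counts in libraries 1 and 2 and 19433 to 21778 in 3 and 4. S100a8 had 8539 to 17708 of these and Mmp8 6895 to 10240, S100a9 reached 4039, Ngp 964 and Ltf 824. The other markers of this list were lower, with Mpo at most 275, Camp 140, Cxcr2 57.7, Elane 34.3 and Ly6g 10.4. The part of neutrophils in the Itgb2 and Itgam values was not tested. Of the dendritic cell markers 6 of 10 were tested, Cd209a was at 0, Flt3 reached at most 7.00, and Cd74 ranged from 547 to 1489. Of the lymphocyte markers 3 of 10 were tested, with Cd3g and Ncr1 at 0, and Cd3e under 1 normalized count in every library. Il7r ranged from 601 to 1244, Cd4 from 42.8 to 229 and Cd79b from 157 to 409, and Ccr7, of the dendritic list, from 16.8 to 63.3.

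Of 8 megakaryocyte and platelet genes 4 were tested, with Pf4 at 20378 to 27357, while Gp1bb and Gp9 stayed at or under 3.59. Of 10 stromal genes 5 were tested, with Dcn at 393 to 511 normalized counts and Bglap under 1. None of these lists held a call between the genotypes or a gene at an unadjusted p under 0.05. Among the 12 osteoclast markers Mmp9 was the most abundant (411837 ± 66883 normalized counts in Elmo1+/-, 413728 ± 129923 in Elmo1-/-) and Clcn7 had the smallest p (15746 ± 2624 and 14409 ± 4028). Among the macrophage markers these were Lyz2 (1255930 ± 252515 and 1291140 ± 311396) and Fcgr1 (2737 ± 536 and 3921 ± 2052).

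The genes most like each β subunit over the 8 libraries are given as a description, by Pearson r of log2 values over 10881 genes with a mean of at least 100 normalized counts. The points share their libraries and the separation of the sets. For Itgb3 they were Midn (0.991), Zfp362 (0.990), Mst1r (0.986), Pigw (0.985) and Oscar (0.981), the last an osteoclast receptor that co-stimulates with RANK. Itgav ranked 223 with an r of 0.924, and Itgb5 had -0.72. For Itgb1 they were Clip1 (0.969), Degs1 (0.967), Gm23374 (0.957), AU040320 (0.954) and Tmco1 (0.952), and for Itgb2 Lrrc8d (0.935), Ece1 (0.920), Lrp12 (0.909), Prkcb (0.906) and Lhfpl2 (0.886). Itgam ranked 53 for Itgb2 with an r of 0.811. Itgb1 and Itgb2 spanned only 0.22 each on the log2 scale over all libraries, so their r values follow small differences. Itgb3 spanned 1.71, but the genes most like it, Midn and Zfp362, spanned only 0.56 and 0.19.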

How the data were processed

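Total RNA from 8 osteoclast cultures was made into TruSeq mRNA libraries and sequenced on a NextSeq as 75 bp paired-end reads. The submitters' processing notes name FastQC, STAR, featureCounts and DESeq2. Versions, build and annotation were not given in the sources used here. A normalized signal was deposited by the authors, the count of each of 46517 genes divided by 1 size factor per library. The deposited table also holds the authors' own comparison (mean, log2 fold change, its error, statistic, p-values), which was not used. Dividing by each library's step gave whole reads for 100% of values (within 0.01 of a read), used for edgeR, DESeq2 and totals.

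Symbols, positions and exon lengths came from GENCODE mouse release 21 (GRCm38). Of the identifiers 46005 matched. Genotypes were compared with limma 3.58.1 (R 4.3.3; trend, robust) on log2(normalized count + 1), over genes reaching 10 in 4 or more libraries, with p adjusted by Benjamini-Hochberg, a threshold of 0.05 and no block, and a log2 fold change is on that scale. Single values and ratios (reads + 0.5) had exact two-sided permutation tests over 70 arrangements. Alternatives were edgeR 4.0.16, DESeq2 1.42.0, equal totals, TMM, pseudocounts of 0.5 and 8, no filter or a minimum of 50, each mouse left out, a replicate block, and the sets of libraries as a term or alone. The interaction of genotype and set was added after the data were seen.

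Same-numbered libraries deviated together from their genotype means (correlations 0.156 to 0.703), so by the rule used the numbers pair them, but differently numbered libraries of 1 set correlated as much or more in several cases (0.691 for Elmo1+/- 2 with Elmo1-/- 1, 0.614 for Elmo1+/- 3 with Elmo1-/- 4). What a number stands for is not in the labels. No 2 libraries of a genotype were copies, with a chi-square per gene of 8.72 or more. Beyond the members, each list gave its most abundant gene, its smallest p and any call, and for each of Itgb3, Itgb1 and Itgb2 the 5 most similar genes were named. Others are said to be named for a role, or were chosen after their values were seen (sentences on sets and on low genes). The members and lists were chosen with earlier results of these data known. Scripts were checked on simulated counts.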

Additional observations from a re-analysis of the deposited data

Results flagged for a closer look

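Itgb3 was picked out because its genotype difference was not the same in the 2 sets of libraries. The difference in libraries 3 and 4 minus that in libraries 1 and 2 was 0.996 on the log2 scale (limma adjusted p = 0.9999 over all genes), with 2 mice per genotype in each set. In libraries 1 and 2 both Elmo1-/- mice were below both Elmo1+/- mice, and in libraries 3 and 4 both were above. Oscar, an osteoclast receptor gene, moved with Itgb3 over the 8 libraries (r = 0.981), and its part in the result was not tested.

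Itgal was picked out because 1 Elmo1+/- library stood far from the other 3 of its genotype. Library 3 had 7403 normalized counts against 4640 to 5034 in the others, a gap of 0.857 of the whole range, above Dixon's 95% critical value for 4 samples. This was the 1 such case among 28 groups tested, and chance gives about 1 in 20. Without that library the log2 fold change of Itgal was 0.35 in place of 0.19, with no call.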

How the results depend on the processing

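No member was called under any of the 20 other settings, and the smallest adjusted p of a member was 0.296 (limma; Itgb3 in libraries 3 and 4). The replicate block and the set term changed no call of a member. Each number occurs once in each genotype, so neither term can move a log2 fold change, and only its error and p could differ. The calls over all genes were 2 in place of 1 without Elmo1+/- library 2, in libraries 3 and 4 alone and by DESeq2. By edgeR and DESeq2 the log2 fold changes of Itgb3 (0.18 by each), Itgav (-0.048 by each) and Itga4 (0.056 by each) were more than 1.5 times from the limma values, with the same signs. TMM moved the median of all genes by 0.0090 on the log2 scale. In libraries 1 and 2 alone the sign turned for Itgb3 (-0.48), Itga4 (-0.071) and Itga5 (-0.0088), and in libraries 3 and 4 alone for Itgav (0.089), Itgb5 (-0.099), Itgb1 (0.018), Itgb2 (0.012) and Itgam (0.042). Leaving out each mouse in turn gave -0.44 to 0.25 for Itgav, -0.25 to 0.33 for Itgb3, -0.13 to 0.27 for Itga4, -0.0040 to 0.094 for Itga5, -0.067 to 0.0063 for Itgb2 and -0.16 to 0.021 for Itgam, so each of these crossed 0, and Itgb5 (0.010 to 0.25), Itgb1 (-0.099 to -0.026), Itgax (0.040 to 0.61) and Itgal (0.12 to 0.35) did not. With the longest transcript as length the levels per kb moved by more than the SD between mice for Itgb1 (5830), Itga5 (1335), Itgav (1384), Itgal (1119) and Itga4 (166), and by less for the rest, such as Itgax (69.2 to 82.1). Among the log2 ratios, those of Itgb3 to Itgb1 and to Itgb2 turned in libraries 1 and 2 alone (-0.35 and -0.42), and those of Itgb3 to Itgb5 and of Itgb1 to Itgb2 turned in libraries 3 and 4 alone (0.62 and 0.0057). With each mouse left out these ratios lay between -0.15 and 0.36 for Itgb3 to Itgb1, -0.20 and 0.34 for Itgb3 to Itgb2, -0.45 and 0.32 for Itgb3 to Itgb5, and -0.061 and 0.0026 for Itgb1 to Itgb2.
With every member at 177 reads or more in each library, the number of mice and the separation of the sets limit these comparisons.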
